A study of Mus musculus with 9 samples.

Results

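A set of 10 genes of sebaceous gland lipid metabolism was followed in the skin of *Supt6*-KO mice. The genes were chosen by name, with earlier results of these data known. They are *Fasn*, *Scd1*, *Scd3*, *Elovl3*, *Far2*, *Awat2*, *Soat1*, *Cidea*, *Mc5r* and *Mgst1*, and all 10 were found among the 17943 genes of the deposited table. *Supt6* encodes SPT6, a histone chaperone that travels with RNA polymerase II during elongation. Bulk RNA-Seq libraries came from 5 control and 4 *Supt6*-KO mice, all taken 10 days after the last injection. *Supt6*-KO mice were K14-CreERT; *Supt6* fl/fl animals given tamoxifen during telogen, the resting phase of the hair cycle. The K14 promoter drives the inducible Cre in keratinocytes and in the epithelium of hair follicles and sebaceous glands. Per the study, controls were *Supt6* fl/fl animals given corn oil, so both groups carried the floxed alleles and differed in Cre and in tamoxifen, which cannot be told apart. The labels call the controls wild-type and the tissue ear, whereas the study names dorsal skin. Age in weeks and sex are not given in the sources used here. Each library is labelled as a separate mouse.

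Sebaceous glands open into the hair follicle, and their cells fill with lipid and burst to release sebum. Sebum of the mouse is rich in wax esters, sterol esters and triglycerides. Fatty acids are built by FASN, desaturated by SCD enzymes and lengthened by ELOVL enzymes. Some are reduced to fatty alcohols by FAR enzymes, and AWAT and SOAT enzymes join acyl chains to fatty alcohols and to cholesterol. Several of these enzymes also work in fat cells and in the epidermis.

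Before any comparison, 3 features of the libraries were noted. A set of 4 Y-linked genes together had 3 and 2 counts in controls 1 and 3, against 5968 to 7345 in the other 3 controls and 5483 to 6465 in the 4 *Supt6*-KO mice. Hair transcripts were uneven, since 10 hair shaft and inner root sheath genes summed to 2125, 172, 701, 419 and 5.63 CPM in controls 1 to 5. Composition also differed, and the TMM factors, which correct for the share of counts taken by a few very abundant genes, were 1.198 to 1.315 in the controls and 0.6738 to 0.9098 in the *Supt6*-KO mice. Depth was similar, with a median of 29870087 counts in controls and of 30794136 in *Supt6*-KO mice. CPM here means counts scaled to the library total after that correction.

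Cartilage genes, looked for because of the ear label, were present in the controls, where 12 of them summed to 863 ± 257 CPM (SD, n = 5). All 12 were called lower in *Supt6*-KO skin (11 to 12 over 12 alternatives), as were 24.9% of all genes tested. Their sum there was 125 ± 6.64 CPM (SD, n = 4). *Supt6* itself was at 74.5, 56.6, 63.6, 91.1 and 96.7 CPM in controls 1 to 5 and at 28.6, 24.1, 21.9 and 28.4 CPM in *Supt6*-KO mice 1 to 4. The groups did not overlap, and the knocked-out gene stood where the labels put it. Its log2 fold change was -1.57 (SE 0.18, adjusted p = 1.3e-05 by edgeR's quasi-likelihood test), or -0.78 with a correction for gene length, under 2-fold.

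Stearoyl-CoA desaturases are close copies of one another, so some reads counted for *Scd3* can come from *Scd1*. Of all windows of 100 bases in the *Scd3* transcripts, 86 of 3390 (2.54%) also occurred in *Scd1*, 26 in *Scd2* and 0 in *Scd4*. No such window was shared by *Awat2* with *Awat1* or by *Far2* with *Far1*. The longest run common to *Scd1* and *Scd3* is 185 bases, all of them coding, across exons 4 and 5 of 6 in both genes. It is printed because a read wholly inside it cannot be assigned by its own sequence. Reads were sequenced in pairs, so a mate outside the run can still place the pair, which the window count does not take into account. The run is in capitals, and the 15 bases on either side are in lower case. In GRCm38 the run lies at chr19:44235804-44238387 on the forward strand for *Scd3* and at chr19:44400363-44401865 on the reverse strand for *Scd1*, both spans including an intron.
Scd3: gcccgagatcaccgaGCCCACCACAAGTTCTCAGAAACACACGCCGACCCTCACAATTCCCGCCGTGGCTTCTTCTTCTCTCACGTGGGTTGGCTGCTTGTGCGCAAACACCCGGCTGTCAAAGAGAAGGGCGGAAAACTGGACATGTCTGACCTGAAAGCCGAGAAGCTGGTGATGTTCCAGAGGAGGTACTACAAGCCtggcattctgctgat
Scd1: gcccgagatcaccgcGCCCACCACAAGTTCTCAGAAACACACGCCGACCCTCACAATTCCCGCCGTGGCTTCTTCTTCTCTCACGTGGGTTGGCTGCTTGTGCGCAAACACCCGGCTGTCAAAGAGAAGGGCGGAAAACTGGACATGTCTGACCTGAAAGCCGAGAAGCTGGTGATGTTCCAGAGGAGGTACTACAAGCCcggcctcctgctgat

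In *Supt6*-KO skin, 8 of the 10 genes were called lower and 0 were called higher. The largest falls were those of the receptor *Mc5r*, the desaturase *Scd1* and the synthase *Fasn*, at 8.16%, 14.8% and 19.3% of the control level. *Far2*, *Scd3*, *Soat1*, *Cidea* and *Elovl3* were at 25.0% to 47.1% of control. *Awat2* and *Mgst1* were not called. A gene was called when its adjusted p was under 0.05 by edgeR's quasi-likelihood test and the change was at least 2-fold. All 10 passed the filter of 10 counts over the 9 mice. By the same rule 24.9% of the 16426 genes tested were lower and 20.9% were higher, so this skin changed widely and lower calls were common in it. The median log2 fold change of the 10 genes was -1.65, against -0.072 over all genes tested. For 7 of the 10 the groups were fully apart, with all *Supt6*-KO values below all control values, a pattern that 31.8% of all genes showed, while 28.9% of all genes were apart with *Supt6*-KO values above. Without controls 1 and 3, which lacked Y-linked counts, the same 8 genes were called lower, with log2 fold changes from -3.62 (*Mc5r*) to -1.11 (*Elovl3*). In whole skin, fewer cells of a type and less RNA per cell cannot be told apart.

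**Figure D1:**
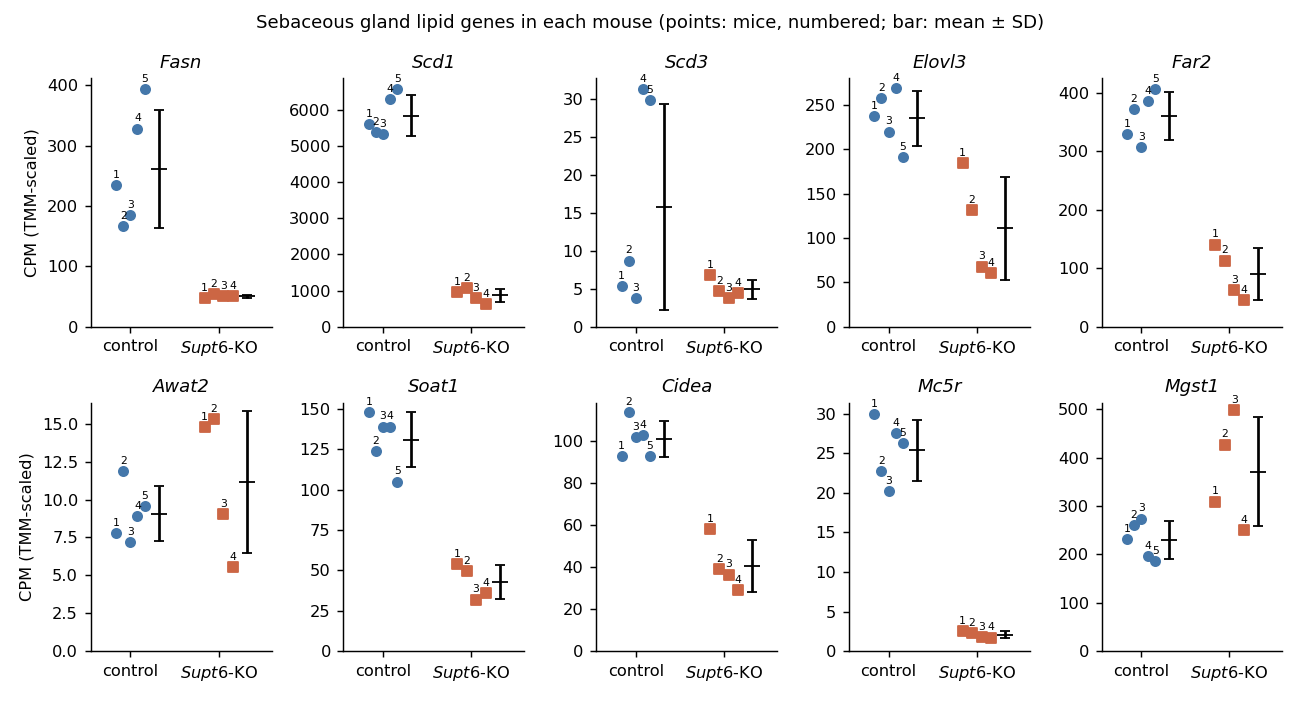
TMM-scaled CPM of the 10 genes in each of 5 control (circles) and 4 *Supt6*-KO mice (squares), with the mouse number above each point and the mean ± SD as a bar, on axes that start at 0. *Fasn*, *Scd1*, *Elovl3*, *Far2*, *Soat1*, *Cidea* and *Mc5r* show no overlap between the groups, whereas *Scd3*, *Awat2* and *Mgst1* do. The higher means of *Awat2* and *Mgst1* in *Supt6*-KO mice turn below the control with library totals or a length correction.

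*Fasn* (NCBI gene 14104, chr11:120805958-120825166) encodes fatty acid synthase, which makes palmitate from acetyl and malonyl units. Gene positions here are those of GRCm38 (mm10). *Fasn* stood at 234, 166, 185, 328 and 394 CPM in controls 1 to 5 and at 47.6, 53.6, 50.2 and 50.7 CPM in *Supt6*-KO mice 1 to 4. The controls spread over 2.37-fold from lowest to highest, and the *Supt6*-KO mice over 1.13-fold. The means were 261 ± 97.1 CPM in controls (SD, n = 5) and 50.6 ± 2.46 CPM in *Supt6*-KO mice (SD, n = 4). On the log2 scale this was -2.37 (SE 0.25, adjusted p = 8.9e-06, edgeR). It fell to a common level in all 4 mice, the narrowest range of any of the 10 genes in the *Supt6*-KO group. A correction for gene length brought the log2 fold change to -1.28, still a call.

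*Scd1* (NCBI gene 20249, chr19:44394450-44407709) encodes the main desaturase of skin, which makes monounsaturated fatty acids. Controls 1 to 5 had 5611, 5383, 5335, 6288 and 6570 CPM, and *Supt6*-KO mice 1 to 4 had 957, 1069, 794 and 631 CPM. The lowest control was far above the highest *Supt6*-KO mouse. On the log2 scale it fell by 2.76 (SE 0.21, adjusted p = 1.2e-06, edgeR). As raw counts, *Scd1* took 0.645% to 0.864% of a control library and 0.0561% to 0.0747% of a *Supt6*-KO library. It was so abundant that it made up 80.1% to 82.0% of the counts of the 10 genes in controls and 51.0% to 56.7% in *Supt6*-KO mice.

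*Scd3* (NCBI gene 30049, chr19:44203288-44244016) encodes a desaturase known from sebaceous glands. Its level was 5.32, 8.71, 3.76, 31.3 and 29.9 CPM in controls 1 to 5 and 6.77, 4.65, 3.80 and 4.45 CPM in *Supt6*-KO mice 1 to 4. Controls 4 and 5 stood apart from the other 3 controls, and those 3 overlapped with the *Supt6*-KO mice. On average it was lower by a log2 fold change of -1.68 (SE 0.60, adjusted p = 0.026, edgeR). The call was lost without control 4 (adjusted p = 0.070), without control 5 (adjusted p = 0.069) and without *Supt6*-KO mouse 2, 3 or 4 (adjusted p = 0.055, 0.068 and 0.051), all by edgeR. Without controls 1 and 3 the log2 fold change was -2.24 (adjusted p = 0.00082, edgeR), and the 3 controls left still ranged from 8.71 to 31.3 CPM.

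*Scd3* counts were 0.0706% to 0.498% of *Scd1* counts in controls and 0.435% to 0.707% in *Supt6*-KO mice. A small part of *Scd1* reads given to *Scd3* would therefore weigh on its value, which is uncertain for that reason. With the counts of the 4 *Scd* genes added together the log2 fold change was -2.47. *Scd1* makes up most of that sum, at 5837 CPM in controls against 15.8 CPM for *Scd3*, so the sum does not bear on *Scd3* by itself. The other members of the family were not called. *Scd2* was at 242 ± 60.3 CPM in controls (SD, n = 5) and 233 ± 157 CPM in *Supt6*-KO mice (SD, n = 4), and its log2 fold change of -0.05 turned positive with DESeq2 and with the length correction. *Scd4* stayed under 1 CPM in both groups on average, at 0.546 ± 0.0957 CPM and 0.356 ± 0.104 CPM.

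*Elovl3* (NCBI gene 12686, chr19:46131897-46135694) encodes an elongase of very long chain fatty acids made in sebaceous glands and hair follicles. Controls 1 to 5 had 237, 258, 220, 269 and 191 CPM, and *Supt6*-KO mice 1 to 4 had 184, 131, 67.7 and 60.2 CPM. *Supt6*-KO mouse 1 came close to the lowest control, and mice 3 and 4 were far below it. The log2 fold change was -1.09 (SE 0.30, adjusted p = 0.0067, edgeR), near the 2-fold limit. It was -0.91 without *Supt6*-KO mouse 3 and -0.89 without mouse 4, under that limit in both fits, and -1.80 with library totals.

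*Far2* (NCBI gene 330450, chr6:148047416-148182758) encodes a fatty acyl-CoA reductase, which supplies the fatty alcohols of wax esters. It was at 329, 371, 307, 385 and 406 CPM in controls 1 to 5 and at 140, 113, 62.8 and 45 CPM in *Supt6*-KO mice 1 to 4. The *Supt6*-KO mice spread over 3.10-fold, against 1.32-fold in controls, and all were below the controls. *Far2* fell by 2.0 on the log2 scale (SE 0.30, adjusted p = 0.0001, edgeR). Its paralog *Far1*, with the same activity and a wide tissue range, was at 56.4 ± 3.71 CPM in controls (SD, n = 5) and 72.4 ± 5.25 CPM in *Supt6*-KO mice (SD, n = 4) (log2 fold change 0.36), a difference that was under 2-fold and became -0.32 with library totals.

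*Awat2* (NCBI gene 245532, chrX:100402221-100494278) encodes an acyl-CoA wax alcohol acyltransferase, which forms wax esters. Controls 1 to 5 had 7.81, 11.9, 7.20, 8.90 and 9.57 CPM, and *Supt6*-KO mice 1 to 4 had 14.8, 15.3, 9.06 and 5.53 CPM. *Supt6*-KO mice 1 and 2 were above every control, mouse 3 was among them and mouse 4 was below. The log2 fold change of 0.30 (SE 0.28, adjusted p = 0.35, edgeR) did not pass the test, and it was -0.44 with library totals and -0.04 with the length correction. The paralog *Awat1* was called lower, with 118 ± 18.6 CPM in controls (SD, n = 5) and 37.2 ± 27.8 CPM in *Supt6*-KO mice (SD, n = 4). Its log2 fold change was -1.67 (SE 0.41, adjusted p = 0.0036, edgeR), with no overlap between the groups.

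*Soat1* (NCBI gene 20652, chr1:156428108-156474328) encodes a sterol O-acyltransferase, which makes cholesteryl esters. It was at 148, 124, 139, 139 and 105 CPM in controls 1 to 5 and at 53.7, 49.6, 31.9 and 36 CPM in *Supt6*-KO mice 1 to 4. The groups were well apart. For *Soat1* the log2 fold change was -1.61 (SE 0.18, adjusted p = 1.1e-05, edgeR), but it was -0.70 with the length correction, under 2-fold. *Cidea* (NCBI gene 12683, chr18:67343564-67367794) encodes a lipid droplet protein that promotes droplet growth. Its level was 93.0, 114, 102, 103 and 92.9 CPM in controls 1 to 5 and 58.1, 39.0, 36.4 and 29.0 CPM in *Supt6*-KO mice 1 to 4. No value overlapped, and the log2 fold change was -1.31 (SE 0.18, adjusted p = 6.1e-05, edgeR), or -2.24 with the length correction.

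*Mc5r* (NCBI gene 17203, chr18:68336744-68342446) encodes the melanocortin 5 receptor, through which melanocortin peptides promote sebum production. It had 1121, 831, 728, 1019 and 1033 counts in controls 1 to 5, and 61, 47, 39 and 47 counts in *Supt6*-KO mice 1 to 4. That is 25.3 ± 3.90 CPM in controls (SD, n = 5) against 2.07 ± 0.405 CPM in *Supt6*-KO mice (SD, n = 4). It fell the most of the 10 genes, 12.3-fold, to a low but countable level in every *Supt6*-KO mouse. The log2 fold change was -3.61 (SE 0.19, adjusted p = 1.5e-07, edgeR), and 2.23% of all genes tested had a lower one. Over all alternatives that did not leave out a mouse it ran from -4.32 to -3.38.

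*Mgst1* (NCBI gene 56615, chr6:138140527-138156755) encodes a microsomal glutathione transferase of lipid-rich membranes. Controls 1 to 5 had 232, 261, 274, 196 and 186 CPM, and *Supt6*-KO mice 1 to 4 had 309, 427, 498 and 250 CPM. Mouse 4 lay within the control range and the other 3 *Supt6*-KO mice lay above it. The log2 fold change was 0.69 (SE 0.21, adjusted p = 0.011, edgeR), under 2-fold, and it was -0.04 with library totals and -0.20 with the length correction.

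The scaling set the direction of *Awat2* and *Mgst1* and the size of the other changes. Library totals moved the median of all genes from -0.072 to -0.759 on the log2 scale, and with them 8 of the 10 genes were called lower, where 41.4% of all genes were lower and 8.95% higher. Relative to that median, *Mgst1* at -0.04 and *Awat2* at -0.44 stood above it. With the length correction, in which the trend of fold change with transcript length was removed, 7 of the 10 were lower, where 20.8% of all genes were lower and 18.9% higher. There *Awat2* at -0.04 and *Mgst1* at -0.20 stood below the median of all genes, which was 0.022. The transcripts of the members run from 1115 bases (*Cidea*) to 10050 bases (*Fasn*). The correction shrank the falls of *Fasn* and *Soat1*, the longest of the 10, and deepened those of *Cidea* and *Elovl3*.

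**Figure D2:**
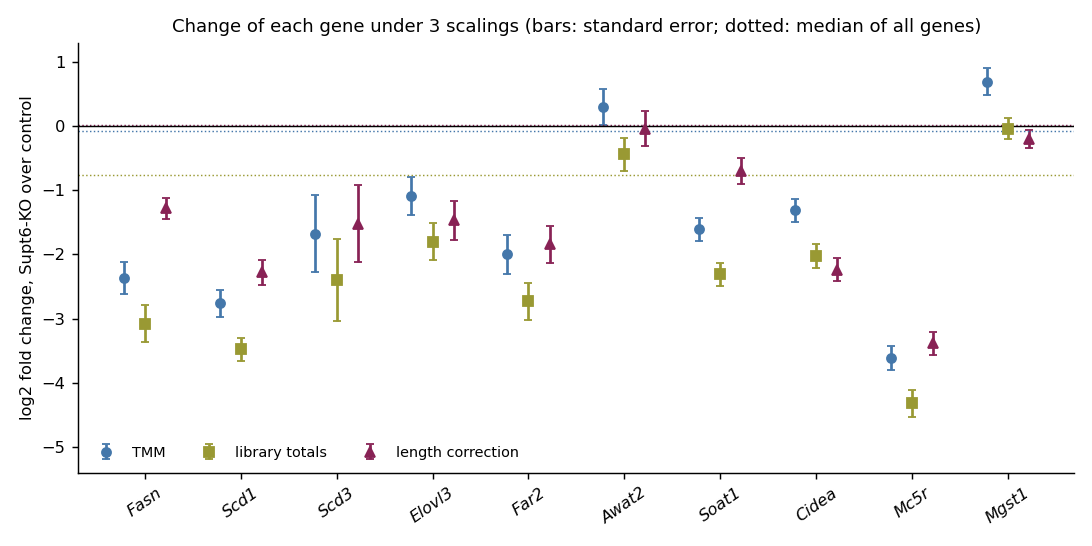
Log2 fold change of *Supt6*-KO over control for each of the 10 genes with TMM factors (circles), library totals (squares) and a length correction (triangles). Bars are standard errors and dotted lines are the medians of all genes, at -0.072, -0.759 and 0.022. *Awat2* and *Mgst1* cross 0 between scalings, and the other 8 genes are below 0 in all 3.

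The 4 *Supt6*-KO mice did not show the changes to the same degree. The median level of the 10 genes, each as a percent of its control mean, was 41.9% in mouse 1, 34.6% in mouse 2, 24.2% in mouse 3 and 26.6% in mouse 4. Mouse 1 had the highest level of the 4 for 6 genes, and mouse 4 had the lowest for 7. The order of the mice turned with the scaling: with library totals mouse 1 was highest for 8 genes, mouse 3 lowest for 7 and mouse 4 lowest for 3, and the medians were 26.2%, 18.8%, 13.6% and 19.5%. The genes also differed in how far the mice spread with TMM factors. *Far2* and *Elovl3* varied over 3.10-fold and 3.06-fold among the *Supt6*-KO mice and *Awat2* over 2.77-fold, while *Fasn* varied over 1.13-fold. In controls the widest ranges were those of *Scd3* at 8.33-fold and *Fasn* at 2.37-fold, and *Scd1* and *Cidea* each varied over 1.23-fold.

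**Figure D3:**
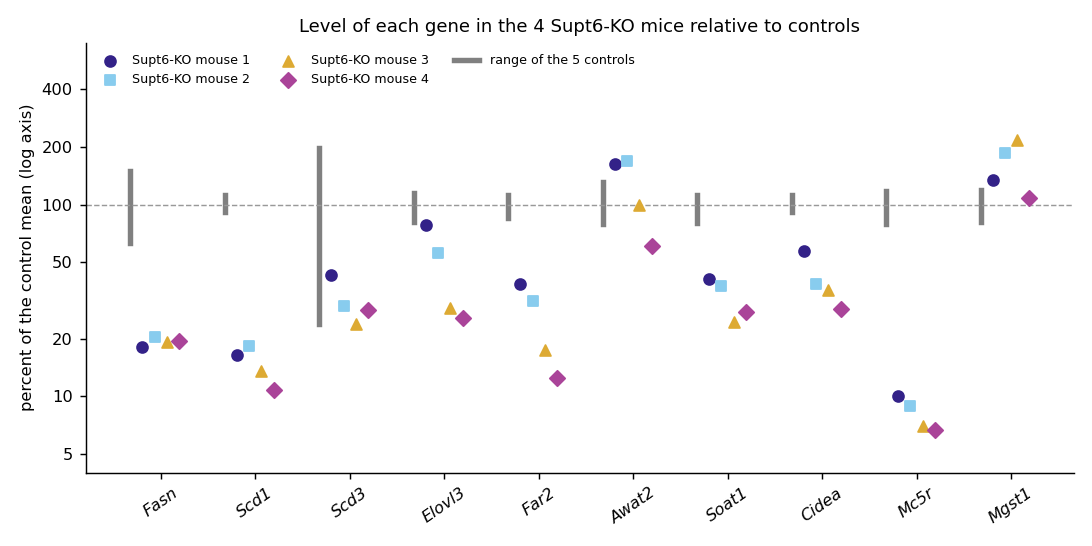
Level of each gene in the 4 *Supt6*-KO mice as a percent of the mean of the 5 controls, on a log axis, with TMM-scaled CPM and the range of the controls as a gray bar. *Mc5r* lies at 6.66% to 10.1% of control in all 4 mice, *Fasn* at 18.2% to 20.5%, and *Elovl3* is spread from 25.6% to 78.3%. *Awat2* lies at 61.0% to 169% and *Mgst1* at 109% to 217%, and both fall below the control on average with library totals or a length correction.

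Levels of different genes were compared as TPM, a scale that accounts for transcript length. In the 5 controls *Scd1* was highest at 2070 ± 456 TPM (SD, n = 5), the 84th gene of the table in order of mean level. *Mgst1* came next at 569 ± 40.3 TPM, followed by *Elovl3* at 241 ± 30.1 TPM, *Far2* at 192 ± 42.4 TPM and *Cidea* at 190 ± 15.4 TPM (SD, n = 5 each). The ranges of *Elovl3* and *Far2*, and those of *Far2* and *Cidea*, overlapped, so these neighbours were not separated. *Soat1* at 46.3 ± 5.70 TPM and *Fasn* at 44.7 ± 22.1 TPM overlapped as well, as did *Mc5r* at 11.1 ± 2.63 TPM, *Awat2* at 11.1 ± 2.38 TPM and *Scd3* at 8.50 ± 7.94 TPM in turn. TPM of *Supt6*-KO mouse 4 was also at hand, and that of the other 3 mice was not analysed here. In this mouse *Mgst1*, at 318 TPM, was above *Scd1*, at 111 TPM, the reverse of all 5 controls, and no spread can be given for it.

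The promoters of 2 genes that fell are shown with their CCAAT boxes, the motif bound by NF-Y, a factor of lipid synthesis genes. RefSeq sequences of the 250 bases upstream of a RefSeq start were matched for 6 members, *Fasn*, *Soat1*, *Far2*, *Awat2*, *Mgst1* and *Scd3*. In GRCm38.p6 the *Fasn* window is chr11:120824548-120824797 and the *Soat1* window is chr1:156474329-156474578, both on the reverse strand. The *Fasn* window lies inside the gene span given above, upstream of an inner start and not of the outermost one. The *Soat1* window lies directly outside its gene span. Matches to CCAAT on either strand are in capitals, and ATTGG is the same motif on the other strand.
Fasn: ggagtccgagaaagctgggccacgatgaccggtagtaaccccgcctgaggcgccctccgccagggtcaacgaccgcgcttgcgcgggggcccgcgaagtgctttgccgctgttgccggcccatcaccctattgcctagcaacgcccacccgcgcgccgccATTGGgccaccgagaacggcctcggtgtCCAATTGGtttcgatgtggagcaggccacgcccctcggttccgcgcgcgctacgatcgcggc
Soat1: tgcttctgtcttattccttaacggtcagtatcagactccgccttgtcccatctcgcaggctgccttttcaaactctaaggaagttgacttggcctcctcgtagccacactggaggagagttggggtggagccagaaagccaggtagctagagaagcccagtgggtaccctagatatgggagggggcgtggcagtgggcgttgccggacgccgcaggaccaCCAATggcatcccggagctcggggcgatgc
*Fasn* holds 3 matches, which begin 90, 62 and 59 bases upstream of that inner start, the last 2 overlapping as CCAATTGG. *Soat1* holds 1, which begins 30 bases upstream. *Awat2*, which was not called, also holds 1 in each of its 2 windows. Both windows lie inside its gene span, and its outermost start had no window here. *Far2*, *Mgst1* and *Scd3* hold none. Annotated exons cover 184 of the 250 bases in *Far2* and 211 and 217 in the 2 windows of *Mgst1*, against 19 in *Scd3* and 0 to 3 in *Fasn*, *Awat2* and *Soat1*. Of 32851 RefSeq promoters of this length 33.85% hold CCAAT. None of the 6 genes matched the sterol regulatory element TCACNCCAC (1.053% of promoters), the E-box CACGTG (6.021%) or the direct repeat 1 of nuclear receptors (0.033%), all searched on both strands, which says only that these letters are not in these windows.

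Other genes of the same pathways were counted in 7 lists that do not contain the 10 genes, each beside the 24.9% lower and 20.9% higher calls of all genes. None of the 102 called genes of these and of the cell type lists changed direction with library totals, upper-quartile factors, DESeq2 or the length correction where it was fitted. Genes of the lists named outside the rule for named genes were chosen after their values were seen. Of 13 genes of fatty acid synthesis, 4 were lower (8 with library totals) and 0 higher (median log2 fold change -0.61). The 4 were *Acacb* and *Acaca*, the acetyl-CoA carboxylases that make malonyl-CoA, *Acss2*, which makes acetyl-CoA from acetate, and *Thrsp*, a lipogenic nuclear protein. *Acacb* fell from 85.7 ± 24.4 CPM in controls (SD, n = 5) to 7.09 ± 3.01 CPM in *Supt6*-KO mice (SD, n = 4). Its log2 fold change was -3.60, or -2.6 with the length correction. *Acss2* and *Acaca* had log2 fold changes of -1.78 and -1.25, and that of *Acaca* was -0.24 with the length correction.

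Of 18 genes of chain elongation, desaturation and hydroxylation, 7 were lower (12 with library totals) and 2 higher (median log2 fold change -0.75). *Fa2h*, which hydroxylates fatty acids at the second carbon and is active in sebaceous glands, fell from 579 ± 91.2 CPM in controls (SD, n = 5) to 47.3 ± 30.7 CPM in *Supt6*-KO mice (SD, n = 4). *Elovl5* and *Fads2*, an elongase and a desaturase of polyunsaturated fatty acids, both had a log2 fold change of -2.21. The 2 higher genes were the elongase *Elovl7* (log2 fold change 1.85) and the dehydratase *Hacd3* (1.03), but *Hacd3* was under 2-fold with library totals (0.33), upper-quartile factors (0.95) and the length correction (0.97).

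Of 16 genes of wax ester, triglyceride and sterol ester synthesis, 5 were lower (8 with library totals) and 1 higher (median log2 fold change -0.34). *Lpin1*, a phosphatidate phosphatase, fell from 31.7 ± 6.16 CPM in controls (SD, n = 5) to 2.59 ± 0.807 CPM in *Supt6*-KO mice (SD, n = 4). *Mogat1* (log2 fold change -1.90), *Gpam* (-1.45), *Mogat2* (-1.38) and *Awat1* were the other 4, and *Gpam* was under 2-fold with the length correction (-0.71). *Mogat2* was under 1 CPM in both groups, at 0.368 ± 0.121 CPM in controls (SD, n = 5) and 0.139 ± 0.0994 CPM in *Supt6*-KO mice (SD, n = 4), and the groups overlapped. *Gpat3*, a glycerol-3-phosphate acyltransferase, rose from 9.55 ± 0.954 CPM in controls (SD, n = 5) to 33.4 ± 10.6 CPM in *Supt6*-KO mice (SD, n = 4).

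Of 16 genes of lipid droplet coats and lipases, 8 were lower (12 with library totals) and 2 higher (median log2 fold change -1.01). The perilipins *Plin1*, *Plin4* and *Plin5*, which coat droplets, had log2 fold changes of -2.88, -2.85 and -2.78. *Pnpla2*, which encodes the lipase ATGL, was lower (log2 fold change -2.03). The 2 higher genes both bear on ATGL, *Abhd5* as its activator (log2 fold change 1.71) and *Hilpda* as an inhibitor (1.16). Both were under 2-fold with library totals, at 0.99 and 0.43, and *Hilpda* also with the length correction, at 0.09. *Plin1*, *Plin4*, *Cidec* and *Lipe*, all lower, also stand in the list of fat cell markers.

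Of 16 transcription factors and sensors of lipid synthesis, 5 were lower (9 with library totals) and 1 higher (median log2 fold change -0.47). *Pparg*, the nuclear receptor needed for sebocyte and fat cell differentiation, fell from 25.3 ± 3.24 CPM in controls (SD, n = 5) to 5.88 ± 0.464 CPM in *Supt6*-KO mice (SD, n = 4), with a log2 fold change of -2.10 (SE 0.14, adjusted p = 5.5e-07, edgeR). *Srebf1*, whose product drives *Fasn* and *Scd1* in many tissues, went from a mean of 136 ± 16.8 CPM down to 42.0 ± 5.72 CPM (log2 fold change -1.70, SE 0.14, adjusted p = 1.6e-06, edgeR). *Ppara*, *Mlxipl*, which encodes ChREBP, and *Rxra*, the partner of the PPAR receptors, had log2 fold changes of -3.17, -2.17 and -1.78. *Mlx*, which encodes the partner of ChREBP, was higher, with a log2 fold change of 1.87.

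Of 13 sebaceous gland stem cell and lineage genes, 12 were tested, and 5 were lower (8 with library totals) and 2 higher (median log2 fold change -0.69). *Lgr6*, a stem cell marker of the upper hair follicle, had a log2 fold change of -2.17. *Sox9*, *Gata6* and *Krt79* were also lower, at -1.79, -1.52 and -1.40. *Lrig1*, a marker of stem cells above the gland, was at 40.9 ± 3.06 CPM in controls (SD, n = 5) and 27.8 ± 2.57 CPM in *Supt6*-KO mice (SD, n = 4), under 2-fold (log2 fold change -0.56), and was at -1.26 with library totals and -0.06 with the length correction. *Prdm1*, which encodes BLIMP1 and is also a gene of epidermal differentiation, rose from a mean of 31.1 ± 4.65 CPM to one of 68.5 ± 22.7 CPM, but was under 2-fold without *Supt6*-KO mouse 2 and with library totals. *Fabp5*, a fatty acid binding protein of keratinocytes as well as sebocytes, rose from 544 ± 91.6 CPM in controls (SD, n = 5) to 15621 ± 4960 CPM in *Supt6*-KO mice (SD, n = 4).

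Around *Mgst1*, 12 microsomal and cytosolic glutathione transferases and relatives gave 3 lower calls and 4 higher calls (median log2 fold change 0.67). With library totals 5 were lower and 3 higher. *Gsta4*, which detoxifies products of lipid peroxidation, rose from 8.86 ± 0.712 CPM in controls (SD, n = 5) to 193 ± 162 CPM in *Supt6*-KO mice (SD, n = 4). The spread was wide, with 114, 75.1, 153 and 432 CPM in *Supt6*-KO mice 1 to 4. Its log2 fold change of 4.45 ran from 3.68 to 4.7 with a mouse left out and was 3.52 with the length correction. *Mgst2*, *Gsto1* and *Ptges*, the inducible prostaglandin E synthase, had log2 fold changes of 3.88, 2.49 and 1.38, the last under 2-fold with library totals (0.71). *Ltc4s*, *Gstm1* and *Gstt1* were lower, at -1.67, -1.47 and -1.32.

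Markers of other tissues moved in the same libraries, and their part in the values above was not tested. Their counts also stand beside the 24.9% lower and 20.9% higher calls of all genes. Of 14 white fat cell markers 11 were lower and 0 higher (median log2 fold change -1.63), close to the median of the 10 genes. Their sum was 1135, 1188, 1168, 1019 and 924 CPM in controls 1 to 5 and 575, 557, 681 and 528 CPM in *Supt6*-KO mice 1 to 4. *Fabp4*, the most abundant of them over the 9 mice together, was at 206 ± 54.7 CPM in controls (SD, n = 5) and 284 ± 59.1 CPM in *Supt6*-KO mice (SD, n = 4) and was not called, and in controls alone *Car3*, at 241 CPM, and *Lpl*, at 209 CPM, were above it. *Adipoq*, a marker that defines fat cells, was present in both groups at 48.1 ± 9.91 CPM and 21.2 ± 4.63 CPM. *Cidea*, *Fasn*, *Scd1* and *Soat1* are expressed in fat as well, so whole skin does not tell the 2 sources apart.

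Of 10 hair shaft and inner root sheath genes 9 were lower (median log2 fold change -7.59, fitted values that rest on few counts in *Supt6*-KO mice), and *Krt71*, the most abundant, went from 212 ± 262 CPM in controls (SD, n = 5) to 0.488 ± 0.155 CPM in *Supt6*-KO mice (SD, n = 4). Control 5 had a hair sum of only 5.63 CPM, below all 4 *Supt6*-KO mice, which had 16, 47.9, 65.1 and 73.9 CPM, most of it from *Tchh* (48.2 ± 25.4 CPM on average), which was not called. Among the 5 controls, control 5 was highest for 3 of the 10 genes (*Scd1*, *Fasn* and *Far2*) and lowest for 4 (*Elovl3*, *Soat1*, *Cidea* and *Mgst1*). Of 8 skeletal muscle genes 7 were lower (median -2.42), the sum going from 5500 ± 592 CPM in controls (SD, n = 5) to 1220 ± 231 CPM in *Supt6*-KO mice (SD, n = 4), with *Acta1* the most abundant in controls and *Mylpf* in *Supt6*-KO mice. Of 7 basal keratinocyte genes *Krt15*, *Trp63*, *Itgb4* and *Col17a1* were lower (median -1.21), while *Krt14*, the most abundant over the 9 mice together and the gene whose promoter drives the Cre, was at 3379 ± 304 CPM and 5355 ± 2915 CPM and was not called. In controls alone *Krt5* was above it, at 4631 CPM. *Trp63* was under 2-fold with the length correction (-0.64). No marker of these lists was at 0 in all 9 mice.

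The genes whose 9-mouse profile was nearest to that of *Scd1* were *Adh1*, *Plin4*, *Susd2*, *Irs1* and *Slc2a12*. Nearness was the root mean square difference over the 9 mice of log2(CPM + 0.5), centred on the control mean, among 13554 genes with a mean of at least 1 CPM. It was 0.091 for *Adh1*, an alcohol dehydrogenase, which went from 95.9 ± 6.54 CPM in controls (SD, n = 5) to 13.9 ± 3.29 CPM in *Supt6*-KO mice (SD, n = 4). *Irs1*, an adaptor of the insulin receptor, and *Slc2a12*, a glucose transporter gene, were at 0.163 and 0.170. The genes nearest to *Awat2* were *Aadacl4fm5*, *Spns2*, *Rnf225*, *Pcbd1* and *Mctp1*, at 0.162 to 0.219, and none of them was called. *Spns2*, a sphingosine-1-phosphate exporter, was at 130 ± 9.69 CPM in controls (SD, n = 5) and 153 ± 58.4 CPM in *Supt6*-KO mice (SD, n = 4).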

How the data were processed

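Per the labels, RNA from the 9 mice was made into mRNA libraries. The authors aligned reads to mm10 with Bowtie2 2.3.4.3 and deposited RSEM 1.3.1 estimated counts per gene, with TPM for 6 of the mice. The submitters' notes also name HISAT and DESeq2 1.4.5. The annotation release is not given in the sources used here. Of the estimated counts 9.0% were not whole, and all were rounded. Of 17943 gene identifiers 17917 matched RefSeq GRCm38.p6, whose coordinates are given. Libraries held 29627341 to 30967107 counts, and nothing between libraries was normalized before deposit.

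Genes with at least 10 counts over the 9 mice were tested with edgeR 4.0.16 (R 4.3.3, quasi-likelihood, TMM, Benjamini-Hochberg over all genes, no covariates). SE is the absolute log2 fold change over the square root of F. Calls needed adjusted p under 0.05 and a 2-fold change. Groups came from sample titles. P-values set the difference between the groups against the spread between these mice. Lengths for the correction were found for 17867 genes. Also run were fits with library totals, with upper-quartile factors, with DESeq2 1.42.0, with no filter or filterByExpr, with the 50 most abundant genes left out, with a replicate block, with a length correction, with unadjusted p, with calls of any size, with *Scd* genes summed and with each mouse left out. After seeing the data, fits without the 2 controls lacking Y-linked counts and with these counts as a covariate, and the level in each *Supt6*-KO mouse by library totals, were added.

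Named were the 10 genes, *Supt6*, *Scd2*, *Scd4*, *Awat1*, *Far1*, *Pparg*, *Srebf1*, *Prdm1* and *Lrig1*, per pathway list the 3 called genes of largest change with at least 1 CPM and no overlap, per cell type list the most abundant gene, and the 5 genes nearest to *Scd1* and to *Awat2*. A further gene that this rule names is not reported here. The members and lists were chosen with earlier results of these data known. Python 3.11.15, pandas 2.3.3 and matplotlib 3.10.9 made tables and plots.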

Additional observations from a re-analysis of the deposited data

Results flagged for a closer look

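A sample far from the rest of its group was looked for in 110 groups of mice (each named gene and each summed list, in controls and in *Supt6*-KO mice), and 4 were found, where chance gives about 5.5. *Mogat1* was at 7.13 CPM in control 5, against a control median of 5.44. *Ppara* was at 2.63 CPM in *Supt6*-KO mouse 1, against a group median of 1.35. *Lrig1* was at 46.3 CPM in control 1, against a control median of 39.8. The summed cartilage genes were at 115 CPM in *Supt6*-KO mouse 1, against a group median of 128. None of the 10 sebaceous gland lipid genes met this rule in either group.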

How the results depend on the processing

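The number of sebaceous gland lipid genes called lower was 7 to 8 over 12 alternatives and 6 to 8 with a mouse left out. It was 7 with the 50 most abundant genes left out, where *Scd1* was itself left out and so not tested. Called higher were 0, except 1 (*Mgst1*, log2 fold change 0.69) when a change of any size counted. *Awat2* turned to -0.44 with library totals and -0.04 with the length correction, and *Mgst1* to -0.04 and -0.20. The length correction brought *Soat1* to -0.70 and *Supt6* to -0.78, under 2-fold. With a mouse left out *Scd3* ran from -1.93 to -1.28 and *Elovl3* from -1.45 to -0.89. Of all genes, library totals called 6802 lower and 1470 higher, and 5608 were higher at any size. In the pathway lists together, library totals called 62 lower and 7 higher, and any size 56 lower and 21 higher. *Scd2* was 0.01 with DESeq2, 0.54 with the length correction and -0.64 to 0.13 with a mouse left out, and *Far1* was -0.32 with library totals. The causes were not tested.

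Same-numbered mice of the 2 groups had a mean correlation of deviations of 0.08 over 4 pairs, from -0.00856 to 0.159. Mice with other numbers had a mean of -0.016 over 16 pairs, from -0.178 to 0.178, a range that holds the same-numbered pairs. No pairing by number was seen, but 4 pairs are too few to decide it. With a replicate block, in which control 5 had no partner and added nothing to the difference, *Scd3* was -0.83 (adjusted p = 0.18, edgeR), and 3834 genes were lower and 3134 higher. The other calls among the 10 genes were the same with the block. Without the 2 controls lacking Y-linked counts the 8 genes called lower were the same ones. Of the 10 genes, *Mc5r* had the fewest counts in *Supt6*-KO mice, 39 to 61.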

Other observations

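Other cell types were read from 4 further lists, each beside the 24.9% lower and 20.9% higher calls of all genes. Of 8 neutrophil and macrophage genes *Lyz2*, *Csf3r*, *Itgam*, *Cd68* and *Ly6g* were called higher and *Mpo* lower. The number called higher was 3 to 5 with a mouse left out and 3 to 6 over 12 alternatives. *Itgam* and *Cd68* were under 2-fold with library totals, at 0.36 and 0.37, and with upper-quartile factors, at 0.97 and 0.94. *Cd68* was also under 2-fold with the length correction, at 0.23. *Lyz2*, the lysozyme of myeloid cells and the most abundant of them, rose from 92.9 ± 18.5 CPM in controls (SD, n = 5) to 641 ± 207 CPM in *Supt6*-KO mice (SD, n = 4), with a log2 fold change of 2.79 (adjusted p = 1.9e-06, edgeR). *Ly6g* was near 0 in both groups, at 0.00548 ± 0.0122 CPM and 0.222 ± 0.317 CPM. *Mpo* was near 0 as well, at 0.354 ± 0.223 CPM and 0.0104 ± 0.0209 CPM, so its lower call rests on few counts. The study found MPO protein on the *Supt6*-KO epidermis by staining, a measure other than RNA. Of 7 dermal fibroblast genes *Col1a1* and *Col1a2* were lower (2 to 5 genes over 12 alternatives), with log2 fold changes of -3.64 and -2.37. *Col3a1*, the most abundant, was at 2112 ± 941 CPM and 1710 ± 604 CPM and was not called. Of 8 brown fat genes *Ppargc1a*, *Prdm16* and *Otop1* were lower (2 to 5 genes over 12 alternatives) and *Dio2* higher. *Otop1* was under 1 CPM in both groups, at 0.316 ± 0.062 CPM and 0.12 ± 0.0679 CPM. *Dio2* was at 2.38 ± 0.566 CPM in controls (SD, n = 5) and spread from 3.45 to 17.4 CPM among the *Supt6*-KO mice. *Prdm16* was under 2-fold with the length correction (-0.57). *Ucp1*, which defines brown fat, was at 0.0541 ± 0.0662 CPM and 0.160 ± 0.0682 CPM, and *Cox8b*, the most abundant, was not called. Of 8 sweat and mammary gland genes 3 were tested, *Csn3* had too few counts to be tested and the other 4 were not analysed here. Among those tested *Aqp5*, a water channel of secretory glands, rose from 0.608 ± 0.148 CPM in controls (SD, n = 5) to 46.5 ± 18.3 CPM in *Supt6*-KO mice (SD, n = 4), and *Krt8* was lower, with a log2 fold change of -2.46.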
